A study of Homo sapiens with 24 samples.

Results

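Nalm6 cells carrying an shRNA against GLP were compared with Nalm6 cells carrying a nonspecific shRNA (shNS), both treated with dexamethasone (dex). All transcripts that changed were followed, whether or not dex regulated them. The comparison was defined by the sample labels, as the 3 libraries of shGLP cells in dex against the 3 libraries of shNS cells in dex, which are 6 of the 24 libraries of the series. The Nalm6 line derives from a human B-cell precursor leukemia, and dex is a synthetic glucocorticoid used against such leukemias. All cells of both groups had received a lentiviral vector and puromycin selection, and were then kept in dex at 100 nM over 8 h. The other 18 libraries were shNS and shGLP cells in vehicle ethanol over 8 h, and cells with an shRNA against G9a or HP1γ in dex or in ethanol, again with 3 replicates a group, which the labels place on different days. A group is a selected population of cells with 1 shRNA against its target, and shNS was the only control shRNA. An effect of GLP loss therefore cannot be told apart from an effect particular to that shRNA or to the shNS cells. The study asked whether HP1γ is needed for the glucocorticoid-induced genes that need the coactivators G9a and GLP, and the shGLP libraries were one of its 3 depletions.

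GLP, the product of EHMT1, and its relative G9a are lysine methyltransferases that pair with each other and place mono- and dimethyl marks on lysine 9 of histone H3, a mark of silent chromatin. Both also act as coregulators of the glucocorticoid receptor, the ligand-activated transcription factor that dex switches on, at a subset of its target genes. HP1γ binds methylated lysine and can be recruited by the methylated G9a and GLP proteins. Lysine 9 methylation is also known for covering the clusters of zinc finger genes on human chromosome 19, where many of the genes encode KRAB zinc finger repressors. Whether that is the mono- or dimethyl mark placed by GLP and G9a was not examined, and these libraries measured no histone mark.

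The deposited values were whole-number read counts on RefSeq transcripts, with 9289533 to 12415531 counts in the 6 libraries. A transcript was tested if it had more than 1 CPM (its count scaled to a common library size) in at least 2 libraries, which held for 10167 transcripts of 9391 genes, and was called changed at a Benjamini-Hochberg adjusted p of at most 0.05 in edgeR's quasi-likelihood test with the replicate number as a block. CPM values use upper quartile factors, and compare libraries rather than genes of different length. EHMT1 itself was counted on 1 of its 6 accessions, with 29, 41 and 46 counts in the shNS libraries and 21, 26 and 33 in the shGLP libraries, or 77.2% of the shNS level. Over dex and ethanol it was lower in 3 of 3 replicates, by 0.53 on the log2 scale on average, with an exact sign-flip permutation p of 0.25, two-sided, the smallest that 3 replicates allow. In dex alone EHMT1 was not called (log2 fold change -0.37, SE 0.21, adjusted p = 0.41, edgeR). The study itself reported efficient loss of GLP in these cells, in protein by immunoblot and in mRNA by RT-qPCR. Neither measurement was analysed here. The B-lineage marker genes summed to 1569.2 to 1802.8 CPM in the shNS libraries and 2603.4 to 2736.7 in the shGLP libraries, most of it from RAG1. T-cell markers summed to at most 0.27 CPM, and of the 8 myeloid markers CSF1R, ELANE, CEBPA, S100A8 and S100A9 were at 0 counts in all 6 libraries.

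GLP depletion in dex changed 587 of the 10167 transcripts, or 5.77%, from 579 genes. Of these, 337 (3.31% of those tested) were higher in shGLP cells and 250 (2.46%) were lower. Each of the 587 moved the same way in 3 of 3 replicates. In 309 of the 337 and 235 of the 250 the shNS and shGLP libraries did not overlap, against 11.9% of all transcripts that were higher without overlap and 8.92% that were lower without overlap. The calls were made on these same libraries, so these counts describe the calls and are no separate evidence for them. Most changes were modest: the median was 0.51 on the log2 scale for the higher transcripts and -0.51 for the lower ones, while the median over all transcripts was 0.03. The change was at least 2-fold in 81 higher and 37 lower transcripts, and under 1.3-fold in 114 and 79. The share of higher transcripts was 57.4% here, 58.0% with limma and 48.8% to 59.9% with libraries left out. It was 49.9% with TMM scaling, 47.1% with DESeq2 and 43.6% without the filter on low counts. Neither direction prevailed across these settings. The smallest p values belonged to TUFM, CD180 and ID3 above and to ZNF134, PPP6R1 and CYTH3 below, while many of the largest folds belonged to transcripts with few counts.

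**Figure D1:**
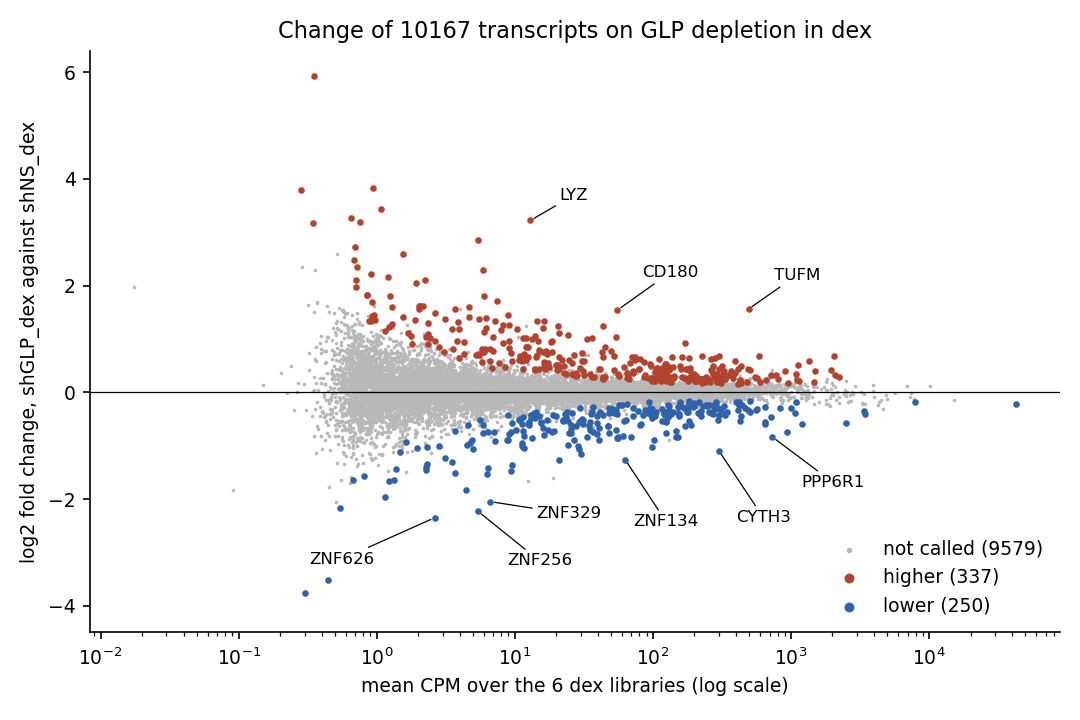
Mean CPM over the 6 dex libraries (horizontal, log scale) against the log2 fold change of shGLP over shNS cells in dex (vertical), 1 point a transcript, for all tested transcripts but 1 that had no counts in these libraries. Red points are the 337 transcripts called higher and blue points the 250 called lower; calls reach small changes at high CPM and need large ones near 1 CPM.

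The clearest family among the lower transcripts was the ZNF zinc finger genes, which encode DNA-binding proteins, most of them transcriptional repressors. Of 303 tested ZNF transcripts from 274 genes, 44 transcripts of 41 genes fell and 3 rose (ZNF280C, ZNF519 and ZNF800), so that 14.5% of the family fell against 2.46% of all transcripts. Of the 44, 6 were noncoding transcripts, mostly antisense RNAs named after a ZNF gene. The median over all 303 was -0.08 on the log2 scale, so the falls were those of a subset. The fall among coding transcripts lay largely on chromosome 19, a split made after the values were seen. There, 32 of 111 coding ZNF transcripts fell and 0 rose, or 28.8%, with a median of -0.25 over the 111. On the other chromosomes 6 of 137 fell and 3 rose, or 4.38%, with a median of 0.01. Chromosome 19 had 48 of 747 transcripts lower (6.43%), and most of these were zinc finger genes. Counting zinc finger genes by any symbol, 38 of 138 of their transcripts fell, against 10 of the 609 other transcripts of the chromosome. Within the chromosome the share was highest between 20 and 25 Mb in GRCh37, where 11 of 20 zinc finger transcripts fell and their median was -0.72, and the 2 other transcripts of that stretch did not. Between 55 and 60 Mb, 8 of 39 fell with a median of -0.10. Across the scalings, filters and left-out libraries tried, the number of lower ZNF transcripts ran from 23 to 50 and the number of higher ones from 0 to 10. The mode by which reads shared between similar zinc finger genes were counted is not given in the sources used here, so values of close relatives such as ZNF626, ZNF726 and ZNF737 are uncertain one by one.

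The promoters of 3 zinc finger genes of chromosome 19 that fell and of CD180, the surface receptor with the best supported rise, are shown because these genes carry both sides of the result. They were chosen after the values were seen. Each is the 250 bases before the gene's RefSeq start, 5′ to 3′ on the gene's strand, from the RefSeq promoter table of GRCh38.p14, and each matched GRCh37 exactly at 1 place. Capitals mark CG dinucleotides, the bases at which human DNA is methylated. ZNF256 lies at chr19:58459075-58459324, ZNF134 at chr19:58125360-58125609, ZNF626 at chr19:20844378-20844627 and CD180 at chr5:66492628-66492877 in GRCh37, with ZNF134 on the plus strand and the others on the minus strand.
ZNF256: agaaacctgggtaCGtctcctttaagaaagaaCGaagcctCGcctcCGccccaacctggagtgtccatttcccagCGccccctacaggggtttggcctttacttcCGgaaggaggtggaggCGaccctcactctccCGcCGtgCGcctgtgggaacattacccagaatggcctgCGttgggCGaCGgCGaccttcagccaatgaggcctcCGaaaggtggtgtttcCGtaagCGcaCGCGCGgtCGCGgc
ZNF134: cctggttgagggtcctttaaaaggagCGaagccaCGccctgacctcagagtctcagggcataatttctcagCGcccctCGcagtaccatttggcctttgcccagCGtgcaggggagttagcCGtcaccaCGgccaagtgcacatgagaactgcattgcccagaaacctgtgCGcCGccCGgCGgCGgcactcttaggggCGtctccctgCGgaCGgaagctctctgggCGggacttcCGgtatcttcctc
ZNF626: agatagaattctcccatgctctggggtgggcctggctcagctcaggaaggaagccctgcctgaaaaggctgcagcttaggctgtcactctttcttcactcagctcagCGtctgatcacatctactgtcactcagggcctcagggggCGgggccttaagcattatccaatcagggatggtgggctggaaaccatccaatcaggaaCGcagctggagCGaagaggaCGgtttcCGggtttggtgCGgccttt
CD180: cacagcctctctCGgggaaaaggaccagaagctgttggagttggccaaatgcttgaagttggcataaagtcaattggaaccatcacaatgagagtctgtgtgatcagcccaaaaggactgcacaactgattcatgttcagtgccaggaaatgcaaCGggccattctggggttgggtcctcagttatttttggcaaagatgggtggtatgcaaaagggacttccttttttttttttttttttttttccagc
The ZNF256 promoter held 22 CG dinucleotides and that of ZNF134 held 17, while ZNF626 had 7 and CD180 had 2. Over the 31 of 34 lower ZNF genes of chromosome 19 that had an entry the median was 13 in 250 bases, over 73 of the 86 other tested ZNF genes of that chromosome it was 16, and over 107 of the 154 tested ZNF genes of other chromosomes it was 19. Over the 6468 of 9391 tested genes that matched it was 21, and over all 27305 promoters of the table it was 11. At least 1 was held by 98.9% of the former and 93.6% of the latter. The promoters of the lower genes held 6 to 25. These counts are a description of the sequence, and no methylation was measured.

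ZNF256 (NM_005773, chr19:58452201-58459074) stood at 9.84, 9.02 and 7.99 CPM in the shNS libraries and at 1.59, 1.81 and 2.24 in the shGLP libraries. All 3 shGLP values were far under the lowest shNS value, a log2 fold change of -2.23 (SE 0.22, adjusted p = 5.94e-07, edgeR). ZNF134 (NM_003435, chr19:58125601-58136092) stood at 89.3, 91.7 and 85.9 CPM and fell to 35.9, 41.0 and 34.3. Its log2 fold change was -1.26 (SE 0.09, adjusted p = 2.85e-09, edgeR), the smallest p of any lower transcript. ZNF329 (NM_024620, chr19:58637615-58666477) went from 11.5, 9.96 and 10.7 to 3.49, 2.44 and 1.96 CPM. ZNF626 (NM_001076675, chr19:20802745-20844402) went from 3.49, 4.29 and 5.41 to 0.74, 1.08 and 0.745 CPM, with a log2 fold change of -2.35, SE 0.27. For both, the groups were again fully separated. ZFP28, a zinc finger gene of the same chromosome under another symbol, fell by 1.48 (SE 0.15), and ZNF10, on chromosome 12, fell by 1.26 on the log2 scale (SE 0.10), from 29.4 ± 2.6 to 12.3 ± 1.89 CPM (SD, n = 3). In all, 15 of the 44 lower ZNF transcripts fell at least 2-fold, and the smallest fall was that of ZNF766, by 0.19. None of the 44 was among the dex-induced transcripts defined below. Those made up only 2.17% of all tested transcripts, a share at which 44 transcripts would hold few or none.

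The zinc finger change was also present without dex. In ethanol, with other libraries of both cell populations, 44 of the 303 ZNF transcripts also fell (14.5% against 1.68% of all transcripts), and 37 transcripts fell in both treatments. The 44 that fell in dex had a median log2 fold change of -0.76 in dex and of -0.75 in ethanol. ZNF134 stood at 92.2 ± 3.1 CPM in shNS cells and 38.6 ± 0.337 in shGLP cells in ethanol (SD, n = 3), next to 89.0 ± 2.93 and 37.0 ± 3.52 in dex.

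The other depletions of the series give a scale for this. For the same 44 transcripts the median log2 fold change against the same shNS dex libraries was -0.23 in shG9a cells, between -1.50 and 0.14, and 0.09 in shHP1γ cells, between -0.24 and 0.91. Tested directly in dex over the whole family, shGLP cells were below shG9a cells in 33 of 303 ZNF transcripts (10.9% against 3.81% of all transcripts) and above them in 6 (background 4.81%). They were below shHP1γ cells in 54 (17.8% against 2.34%) and above them in 2 (background 1.68%). ZNF134 had 61.2 ± 6.97 CPM in shG9a cells and 112.5 ± 5.01 in shHP1γ cells, so that shGLP cells were lowest of the 4 populations and shHP1γ cells highest, and shGLP differed from both (adjusted p = 9.03e-06 and 4.22e-11, edgeR). ZNF256 followed the same order, at 6.17 ± 1.16 and 10.6 ± 1.05 CPM, while ZNF626 at 1.57 ± 0.426 CPM in shG9a cells did not differ from shGLP cells past the threshold (adjusted p = 0.0987, edgeR) and stood at 8.4 ± 0.747 CPM in shHP1γ cells.

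**Figure D2:**
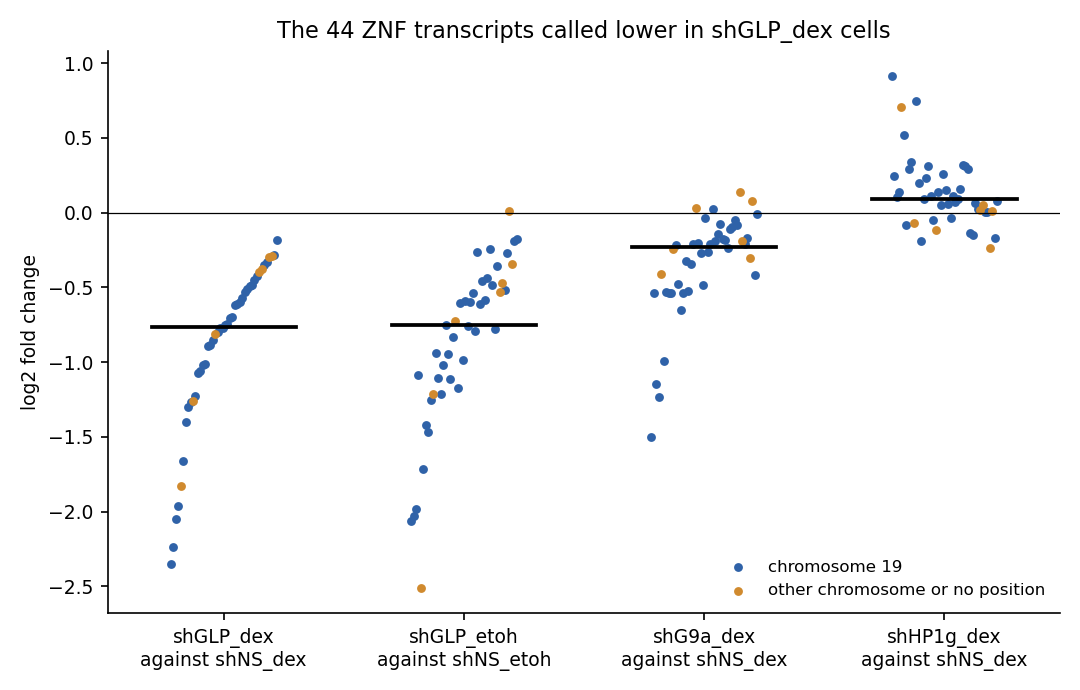
Log2 fold change (vertical) of the 44 ZNF transcripts called lower in shGLP cells in dex, in the comparison that chose them and in 3 others, with transcripts in the same order from left to right in each and a line at the median. The medians are -0.76, -0.75, -0.23 and 0.09; all but the ethanol comparison share the shNS dex libraries.

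Outside the zinc finger family the falls were of mixed function, though some were of related genes. Among these were the metallothioneins MT1X, MT2A and MT1H, and NOMO1, NOMO2 and NOMO3, picked out after their values were seen. PPP6R1, a regulatory subunit of protein phosphatase 6, stood at 898.5, 904.9 and 1019.6 CPM in shNS and 464.1, 504.8 and 622.4 in shGLP libraries. It lies on chromosome 19 at 55741147 to 55770385 and its log2 fold change was -0.84 (SE 0.06, adjusted p = 4.65e-09, edgeR). RRAGD, a Rag GTPase that signals amino acid supply to mTORC1, stood at 190.4, 180.7 and 177.7 CPM in shNS and at 119.6, 110.0 and 102.9 in shGLP libraries. ADAMTS17, a secreted metalloprotease, went from 75.2, 72.1 and 85.5 to 40, 40.6 and 52.0 CPM. In none of these 3 genes did the groups overlap, and of the 3 only ADAMTS17 was dex-induced. All 3 fell by a like amount in ethanol, by 0.93, 0.79 and 0.68 on the log2 scale, and were higher in shG9a than in shGLP cells in dex, with adjusted p of 2.69e-08, 1.02e-09 and 1.9e-09 in edgeR. Low-count transcripts made up many of the largest falls. LINC02422, a dex-induced noncoding RNA, went from 10.9, 8.24 and 8.88 to 3.81, 3.34 and 2.61 CPM, and CST7, an inhibitor of cysteine proteases, from 2.94, 3.69 and 3.39 to 1.16, 0.903 and 1.58 CPM. The noncoding RNAs LINC00665, LOC100128398 and ZNF529-AS1 fell by 1.35, 1.83 and 1.40 on the log2 scale, of which the latter pair are counted in the ZNF family above, LOC100128398 under its current RefSeq symbol ZNF606-AS1. Antisense RNAs such as ZNF529-AS1 could hold reads of their partner gene, since it is not known whether strand was used. Of 2277 noncoding transcripts, 37 rose (1.62% against 3.31%) and 39 fell (1.71% against 2.46%).

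The transcript with the smallest p of all was TUFM, the mitochondrial translation elongation factor Tu. It stood at 239.2, 241.6 and 268.8 CPM in shNS and 705.8, 757.5 and 746.7 in shGLP libraries, with a log2 fold change of 1.56 (SE 0.06, adjusted p = 3.63e-14, edgeR). Against the same shNS libraries TUFM was high in the other depletions too, at 813.8 ± 43.8 CPM in shG9a cells and 758.0 ± 88.1 in shHP1γ cells in dex (SD, n = 3), and neither differed from shGLP cells past the threshold (adjusted p = 0.14 and 0.881, edgeR). In ethanol TUFM stood at 274.9 ± 13.8 CPM in shNS cells. The 82 transcripts of the respiratory chain and ATP synthase, whose mitochondrial subunits TUFM helps to make, held 0 calls in edgeR and in DESeq2, with 4 higher and 1 lower at an unadjusted p under 0.05 and a median of 0.04.

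CD180, a Toll-like receptor relative on B cells, was the second best supported rise. It stood at 32.7, 28.3 and 24 CPM in shNS and 91.8, 87.5 and 68.0 in shGLP libraries, with a log2 fold change of 1.54 (SE 0.08, adjusted p = 2.43e-12, edgeR). Unlike TUFM it was near the shNS level in the other depletions, at 30.3 ± 3.67 CPM in shG9a and 32.7 ± 4.48 in shHP1γ cells, and shGLP cells differed from both (adjusted p = 1.79e-11 and 4.22e-11, edgeR). LY86, which encodes the secreted partner of CD180, rose from 17.0, 20.4 and 15.8 to 25.9, 23.7 and 22.4 CPM, but its call was at the threshold (adjusted p = 0.0495, edgeR) and was lost with TMM scaling, with DESeq2 and without any 1 replicate number. Of 27 tested transcripts of B-cell leukemia surface antigens, 4 rose and 0 fell (14.8% against 3.31%), with a median of 0.21. The other members that rose were the tetraspanin CD81 (20.1, 32.6 and 24.9 CPM to 63.9, 66.5 and 52.0) and the glycoprotein CD52 (5.06, 4.38 and 3.07 to 8.14, 8.58 and 5.31), whose call was lost without the replicate block and without replicate 2. The transcripts of CD38, CD9 and the 3 of MME did not pass the test.

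Of 23 transcripts of B-lineage transcription factors and V(D)J recombination genes, 5 rose and 0 fell (21.7% against 3.31% of all transcripts that rose), with a median of 0.29. RAG1, the recombinase subunit, stood at 1673.0, 1597.1 and 1485.6 CPM in shNS and 2435.0, 2551.7 and 2600.1 in shGLP libraries (log2 fold change 0.68, SE 0.11, adjusted p = 0.000147, edgeR). POU2AF1, the B-cell coactivator of octamer factors, went from 191.5, 162.6 and 171.8 to 301.5, 281.0 and 259.9 CPM. IRF8, an interferon regulatory factor of B and myeloid cells, went from 10.8, 9.88 and 8.31 to 21.3, 22 and 22.9 CPM. In each the lowest shGLP library was above the highest shNS library. The remaining calls were ETV6 (log2 fold change 0.29) and IKZF2, at the threshold with an adjusted p of 0.0499 in edgeR. BACH2, FOXO1, SOX4 and the tested transcripts of RUNX1 and ERG did not pass. Without replicate 3 the list kept 2 of its 5 calls. Of 12 transcripts of the pre-B-cell receptor and its proximal signaling, 2 rose and 0 fell (16.7% against 3.31%). VPREB3, a surrogate light chain partner, rose from 232.0 ± 59.6 to 368.6 ± 65.3 CPM, and PLCG2, the phospholipase of B-cell receptor signaling, by 0.35. Both calls were lost without replicate 2, without replicate 3 and without the replicate block. CD79A, IGLL1, BLK and CD72 did not pass.

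The largest fold rises were those of genes with few reads in shNS cells. LYZ, the antibacterial enzyme lysozyme, had 34, 34 and 20 counts in shNS libraries and 220, 307 and 208 in shGLP libraries. That is 3.13, 2.92 and 1.61 CPM against 23.3, 27.7 and 19.4, a log2 fold change of 3.22 (SE 0.32, adjusted p = 5.94e-07, edgeR). LYZ is a marker of myeloid cells. Without LYZ the myeloid markers summed to 0.281 to 1.13 CPM in shNS and 0.969 to 2.25 CPM in shGLP libraries, ranges that were low and overlapped. MPO, the other tested myeloid marker, had 2, 6 and 12 counts in shNS and 7, 22 and 11 in shGLP libraries and was not called, CD14 had 0 to 3, and the other 5 markers were at 0. The part of myeloid RNA in the rise of LYZ was not tested. ARHGAP24, a GTPase-activating protein, had 2, 3 and 1 counts in shNS libraries and 16 to 25 in shGLP libraries, a ratio of 11.5 with a 95% counting interval of 5.01 to 32.7. GZMA, the serine protease granzyme A, went from 1.84, 2.32 and 1.78 to 10.0, 10.8 and 8.48 CPM. In shG9a cells it reached 8.89 ± 2.13 CPM and in shHP1γ cells it stood at 1.76 ± 1.16 (SD, n = 3). LYZ stood at 5.42 ± 1.15 and 4.88 ± 2.96 CPM there, so its high level was found in shGLP cells only among the 4 populations in dex (adjusted p = 3.56e-05 against shG9a and 1.54e-05 against shHP1γ, edgeR). Other large rises by rule were those of receptors and a kinase. GPR65, a proton-sensing receptor, rose by a log2 fold change of 2.11, CNR2, a cannabinoid receptor, by 2.05, PRKACA, the catalytic subunit of protein kinase A, by 1.8, and ROR2, a Wnt receptor, by 1.61. IL1B, the inflammatory cytokine interleukin 1 beta, went from 4.23, 3.44 and 2.74 to 12.6, 12.6 and 8.66 CPM. H2AFB2, a histone H2A variant with near-identical copies, had 0 counts in the shNS libraries and 4 to 12 in the shGLP libraries, at least 2.7-fold higher against a floor of 3 counts per library, and is uncertain for that reason.

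**Figure D3:**
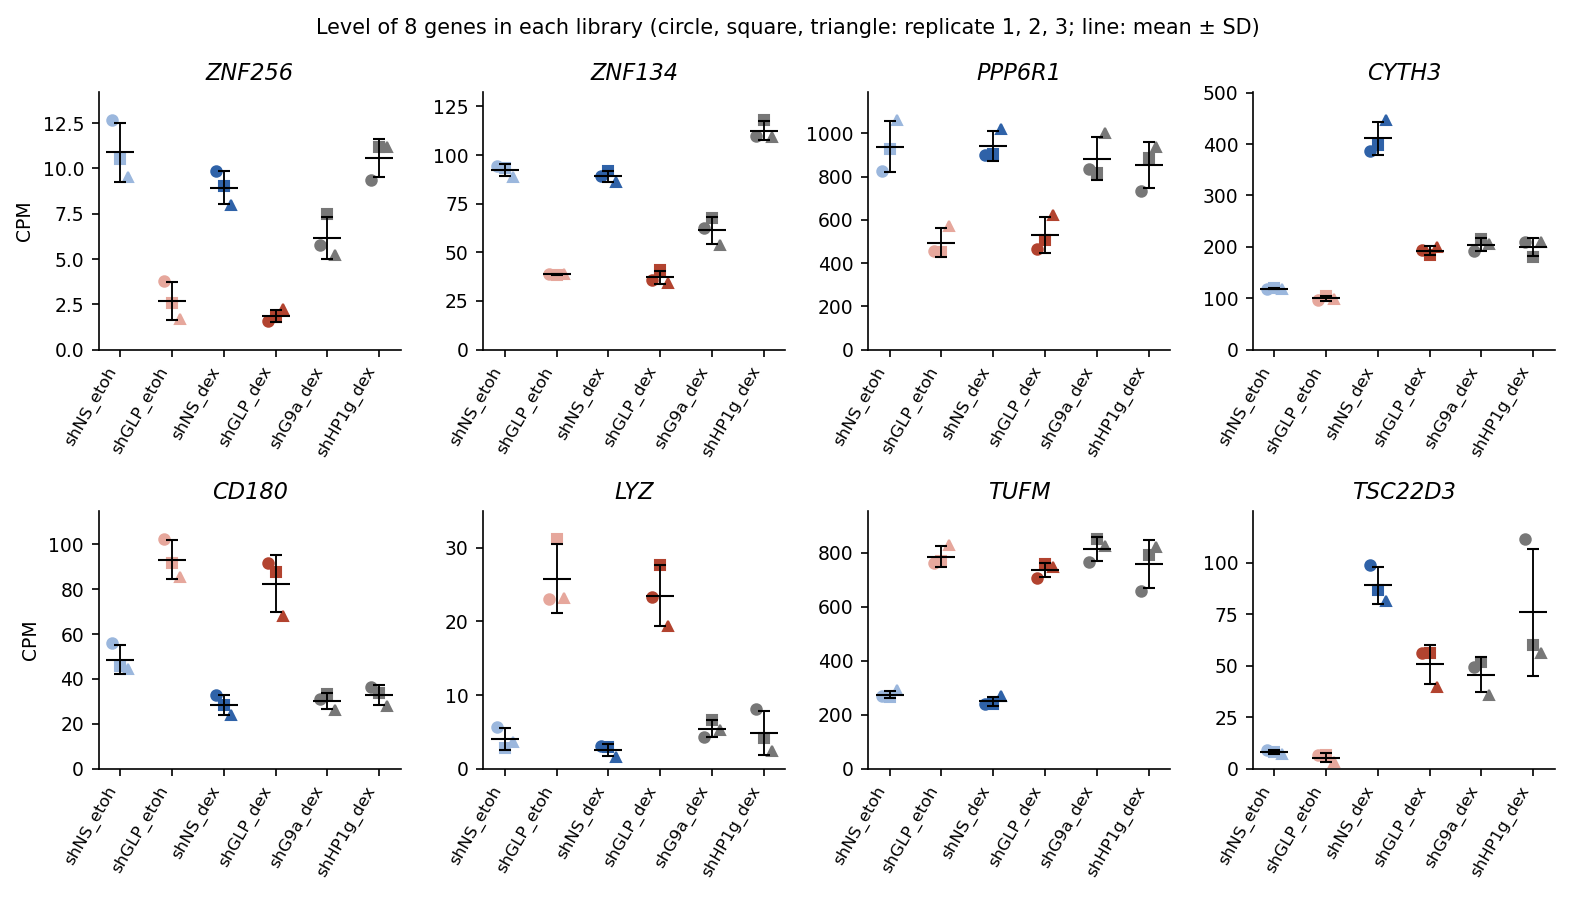
CPM (vertical, from 0) of 8 genes in each library of 6 groups, with circles, squares and triangles for replicates 1, 2 and 3 and black lines for the mean ± SD. ZNF256, ZNF134 and PPP6R1 are low and CD180 and LYZ high in shGLP cells in ethanol and in dex, TUFM is low in shNS cells alone, CYTH3 differs more in dex than in ethanol, and TSC22D3 is low in ethanol in both populations.

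In the lists that follow a minority of the members was called, and those called were all higher, except in the DNA replication list. Of 26 transcripts of the unfolded protein response and heat shock list, 7 rose and 0 fell (26.9% against 3.31%), with a median of 0.18. They were the endoplasmic reticulum chaperones and folding factors HSPA5, HSP90B1, CALR, PDIA4, SDF2L1 and DNAJC3, and the cytosolic heat shock protein HSPB1. HSPA5, the master chaperone of that compartment, went from 840.9, 995.9 and 955.9 to 1197.3, 1461.2 and 1308.6 CPM, and HSPB1 from 362.1 ± 27.1 to 513.4 ± 59.8 CPM. The cytosolic factors DNAJB1 and HSP90AA1 and the mitochondrial chaperonins HSPD1 and HSPE1 did not pass, nor did HSPA8 at 1304.6 ± 136.1 CPM in shNS and 1248.2 ± 95.4 CPM in shGLP cells. HSPA6, an inducible cytosolic chaperone outside the list and named after its value was seen, rose from 1.05 to 2.7 CPM on average (log2 fold change 1.36, SE 0.24). Without the replicate block, or without replicate 3, 2 transcripts of the list passed. Of the 7, HSP90B1 alone was also called in ethanol.

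Of 24 transcripts of mitosis genes, 6 rose and 0 fell (25.0% against 3.31%), with a median of 0.25. PLK1, a mitotic kinase, stood at 225.0, 387.3 and 340.7 CPM in shNS and 393.5, 555.1 and 453.4 in shGLP libraries. The lowest shGLP library was just above the highest shNS library, and replicate 1 was the lowest in both groups (log2 fold change 0.58, SE 0.09, adjusted p = 8.81e-05, edgeR). CDC20, the activator of the anaphase-promoting complex, KIF20A, CCNB2, TOP2A and 1 of 2 transcripts of AURKB rose as well, by 0.25 to 1.06. The list was sensitive to the libraries used, with 2 calls without replicate 1, 2 or 3 and 1 call without the replicate block. In ethanol 5 of its transcripts rose. Of 28 transcripts of DNA replication genes 0 rose in edgeR, also at an unadjusted p under 0.05 and in DESeq2. In edgeR 1 fell (3.57% against 2.46%), CCNE2, by 0.35. The difference between the lists was not tested.

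Of 26 transcripts of interferon-stimulated genes, 4 rose and 0 fell (15.4% against 3.31%), with a median of 0.15. MX2, an antiviral GTPase, went from 12.5, 13.6 and 10.4 to 31.4, 30.4 and 25.2 CPM, and OAS3, a sensor of double-stranded RNA, from 37.0, 35.7 and 37.0 to 58.6, 66.2 and 62.6. The other calls, 1 of 3 transcripts of OAS2 and IFIH1, were lost with TMM scaling and with DESeq2, and ISG15, IFIT2 and BST2 did not pass. Of 20 transcripts of immediate early genes of the AP-1 and EGR families and their feedback regulators, 4 rose and 0 fell. Over all transcripts 3.31% rose. Among the 4 were BATF by 1.01, SPRY2 by 0.67 and IER2 by 0.45. Without replicate 3 none of the 4 passed. The call of BATF was also lost with DESeq2, without the replicate block and with any other replicate or any single library left out. Of 60 histone transcripts 4 rose and 0 fell (6.67% against 3.31%), but the median over the list was -0.08. They included H2AFB2, H1F0 and H1FX, whose calls were lost without the replicate block, and the variant H2AFZ, from 1086.0 ± 31.7 to 1636.6 ± 75.0 CPM.

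Other lists were close to the background or empty. Of 18 transcripts of lysine 9 methylation writers and HP1 partners, 1 rose (5.56% against 3.31%). It was CDYL, a chromodomain protein that binds that mark, which went from 9.03 ± 1.48 to 13.6 ± 1.32 CPM. Its call was lost without the replicate block and without replicate 1 or 3. TRIM28, the corepressor of KRAB zinc finger proteins, stood at 1445.5 ± 125.4 CPM in shNS and 1556.6 ± 144.7 in shGLP cells (adjusted p = 0.536, edgeR), and CBX3, which encodes HP1γ, did not pass on either tested transcript. G9a mRNA was not analysed here. The 9 lysine 9 demethylase transcripts, the 10 of the BCL2 family, the 5 germline genes, the 8 imprinted transcripts, the 25 of sterol and fatty acid synthesis and the 30 of glycolysis and related pathways held 0 calls each in edgeR, with 9 higher and 5 lower of these 87 at an unadjusted p under 0.05. Single alternatives gave up to 4 calls in these lists, all 4 among the 30 glycolysis transcripts and with the 6 libraries fitted alone. BCL2 stood at 213.7 ± 2.87 CPM in shNS and 217.4 ± 4.24 in shGLP cells on NM_000633.

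**Figure D4:**
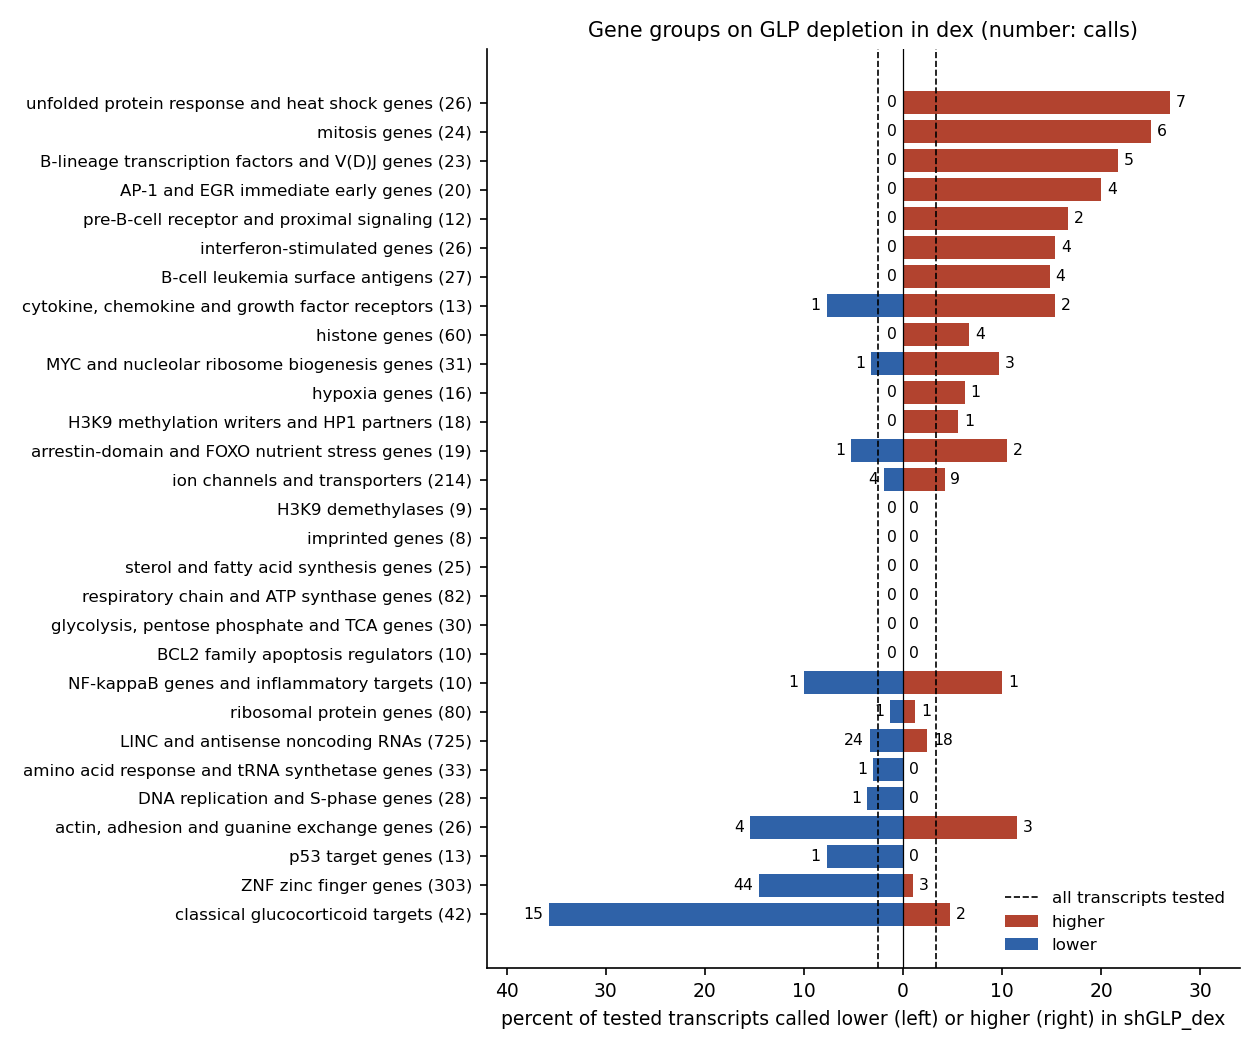
Share of the tested transcripts of each gene list (number in brackets) that were called lower (blue, to the left) or higher (red, to the right) in shGLP cells in dex, in percent, with the number of calls at each bar's end. Dashed lines mark 2.46% lower and 3.31% higher over all transcripts; the ZNF and glucocorticoid target lists stand out to the left.

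The glucocorticoid-induced genes were the other group on the lower side. To find them without the shNS or shGLP libraries, the response to dex was taken as the mean of the dex response in shG9a cells and in shHP1γ cells. At an adjusted p of at most 0.05 and at least 1.5-fold, 221 transcripts were induced (2.17%) and 59 repressed (0.58%). Of the 221 induced transcripts, 57 were lower in shGLP than in shNS cells in dex and 4 were higher, or 25.8% lower against 2.46% of all transcripts. Their median log2 fold change was -0.36 in dex and 0.02 in ethanol. Seen from the other side, 57 of the 250 lower transcripts (22.8%) were dex-induced and 0 were dex-repressed, while of the 337 higher ones 4 were induced and 7 repressed. The 57 include several transcripts of the same gene, SOCS2. Most changed transcripts did not pass this definition: 193 of the 250 lower and 326 of the 337 higher transcripts were neither induced nor repressed by it. A response to dex that is weaker in the shG9a and shHP1γ cells can be missed this way, so these transcripts are not shown to be free of dex regulation. The response in shNS cells was not used, so that no shNS dex library entered both the response and the comparison.

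The known targets of the receptor overlap this group. A list of classical glucocorticoid targets held 42 transcripts of 29 genes. It was drawn up with the study's results on these samples known, and so is no independent evidence of direction. Of the 42, 15 transcripts of 11 genes fell (35.7% against 2.46% of all transcripts) and 2 rose (4.76% against 3.31%). The median over the list was -0.41. TSC22D3, which encodes the anti-inflammatory mediator GILZ, stood at 98.7, 86.7 and 81.3 CPM in shNS and 56.0, 56.3 and 39.5 in shGLP libraries on its main transcript. In ethanol it was at 8.05 ± 0.901 and 5.44 ± 2.01 CPM, far under the dex levels of both populations. TXNIP, a thioredoxin inhibitor, stood at 70.7, 70.6 and 58.8 CPM in shNS and 45.8, 42.9 and 34.2 in shGLP libraries in dex. BTG1, an antiproliferative factor, went from 1178.2, 1191.0 and 1124.0 to 744.8, 687.6 and 654.1 CPM, and SOCS1, an inhibitor of cytokine signaling, from 32.9, 34 and 38 to 20.8, 17.3 and 19. For these 4 genes no shGLP library reached the lowest shNS library. SOCS2, a relative of SOCS1, fell on all 5 of its tested transcripts, by 0.56 to 0.84, and these may share reads. The clock gene PER1, the NF-κB inhibitor NFKBIA, BTG2 and KLF9 fell by 0.42, 0.40, 0.36 and 0.30. RASSF4, a Ras association domain protein, fell by 0.85. Against these, DUSP1, a phosphatase of MAP kinases, rose by 0.33 with overlapping libraries (adjusted p = 0.0403, edgeR) and lost the call with TMM scaling, and 1 of 2 transcripts of MXI1 rose at 1.06 CPM in shNS cells. FKBP5, ZFP36, DDIT4, KLF13 and the glucocorticoid receptor gene NR3C1 did not pass on their tested transcripts, and neither did LDLRAD4, ARHGAP6 or ZNF831. LILRA2, an immunoglobulin-like receptor, had log2 fold changes of -0.92 and -0.43 on its tested transcripts (adjusted p = 0.101 and 0.552, edgeR), and the former passed with limma (-0.57, adjusted p = 0.0382) and without shGLP replicate 2 (-1.33, adjusted p = 0.045, edgeR). Without the replicate block 7 of the list's transcripts fell, and without replicate 3, 5.

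Beyond the classical targets, dex-induced genes with the largest falls included low-count transcripts and well expressed ones. P2RY14, a receptor for UDP-sugars, was at 0.118 CPM in shNS cells in ethanol, reached 4.41, 6.27 and 5.57 CPM in dex, and stood at 2.54, 1.81 and 1.40 in shGLP libraries. GPR171, its neighbour, went from 10.4, 10.6 and 7.1 to 3.07, 3.97 and 3.26 CPM. Both lie within MED12L, which fell as well, so their reads may be shared. The GPR171 call (adjusted p = 0.0392, edgeR) was lost with DESeq2, without the replicate block and without replicate 2 or 3. HEYL, a repressor of the Notch pathway, went from 11.9, 12.1 and 17.2 to 4.76, 5.69 and 5.31 CPM. KCNK3, a potassium channel, fell from 38.1 to 19 CPM on average, and KLF2, a quiescence factor of lymphocytes, from 41.8 to 19.1. MCAM, an adhesion molecule, fell by only 0.38, from 1168.6, 1225.5 and 1235.4 to 898.4, 972.1 and 919.7 CPM.

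The same contrast was made in ethanol, where 367 transcripts were called (3.61%), 196 higher (1.93%) and 171 lower (1.68%). Of the 337 transcripts higher in dex, 331 had the same sign in ethanol and 154 were called higher there. Of the 250 lower ones, 224 had the same sign and 113 were called lower, and no transcript was called in opposite directions. Over all transcripts the sign was the same in 66.4%. Of the 57 lower and dex-induced transcripts 11 were also called lower in ethanol, and their median was -0.68 in dex and -0.16 in ethanol. Of the 193 lower transcripts outside the dex response so defined, 102 were, with medians of -0.44 and -0.37. On the higher side 3 of the 4 dex-induced, 4 of the 7 dex-repressed and 147 of the 326 other transcripts were also called higher in ethanol. The difference between these shares was not tested.

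The interaction, in which the change on GLP depletion in dex was tested against that in ethanol, passed for 12 transcripts (0.118%). CYTH3, an exchange factor for ARF GTPases, was the clearest. It stood at 386.7, 398.9 and 447.6 CPM in shNS and 192.9, 183.5 and 200.6 in shGLP cells in dex, and at 118.6 ± 1.5 and 99.6 ± 4.3 CPM in ethanol. The change differed by -0.85 on the log2 scale between treatments (SE 0.12, adjusted p = 0.00598, edgeR). In dex CYTH3 was at 204.3 ± 12 CPM in shG9a and 199.7 ± 16.7 in shHP1γ cells, and neither differed from shGLP cells past the threshold (adjusted p = 0.58 and 0.881, edgeR). CDC42EP2, an effector of the GTPase CDC42, MCAM and BTNL9, a butyrophilin-like protein, fell in dex by 0.74, 0.38 and 0.66 and had log2 fold changes of 0.08, 0.05 and 0.21 in ethanol. ID3, an inhibitor of E-protein transcription factors that dex lowers, rose in both, by 0.93 in dex and 0.33 in ethanol. CD180 also rose more in dex than in ethanol, by 1.54 and 0.94. In edgeR none of the 12 passed without replicate 2, and 1 passed without replicate 3.

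**Figure D5:**
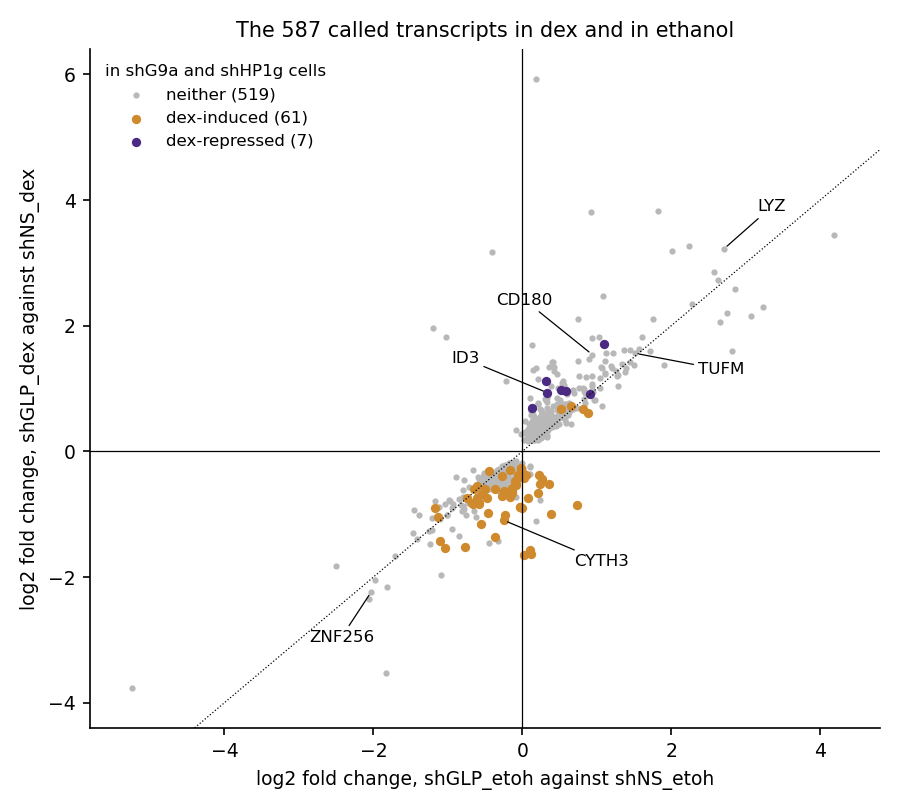
Log2 fold change on GLP depletion in ethanol (horizontal) and in dex (vertical) for the 587 transcripts called in dex, with a dotted line where both are equal. Orange marks the 61 called transcripts that dex induced in shG9a and shHP1γ cells and purple the 7 it repressed; most orange points lie below 0 in dex, and many of them close to 0 in ethanol.

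Tested directly against the other depletions in dex, shGLP cells differed from shG9a cells in 876 transcripts, 489 higher and 387 lower, and from shHP1γ cells in 409, 171 higher and 238 lower. Each of these contrasts shares the shGLP libraries with the comparison above. The transcripts with the smallest p against shG9a cells included CD180, RRAGD and ADAMTS17, named above, and CNOT11, LGALS3BP and RBM3. CNOT11, a subunit of the CCR4-NOT deadenylase, had a log2 fold change of 0.06 in shGLP and -0.81 in shG9a cells against shNS. LGALS3BP, a secreted galectin ligand, moved in opposite directions, at 0.65 in shGLP cells and -0.57 in shG9a cells. RBM3, a cold-inducible RNA-binding protein, had 0.15 and -0.51. Against shHP1γ cells the smallest p values were those of CD180, ZNF134, LINC01694, LINC01602, ZNF626 and ZNF681, of which 3 are zinc finger genes lower in shGLP cells. LINC01694 was high in shHP1γ cells (1.49 against shNS, next to 0.26 in shGLP cells). IRF8 stood at 8.23 ± 1.48 CPM in shG9a and 8.06 ± 1.54 in shHP1γ cells, near the shNS value of 9.65 ± 1.24, and was above both in shGLP cells at 22.1 ± 0.826 (adjusted p = 3.71e-06 and 3.04e-06, edgeR). KCNJ2, a potassium channel, by contrast rose by 1.11 in shGLP cells, next to 1.39 and 1.48 in shG9a and shHP1γ cells.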

How the data were processed

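RNA of 24 Nalm6 populations was sequenced as paired-end reads. Per the labels and the study's methods, the authors trimmed the reads, aligned them with HISAT2 to hg19 (GRCh37) and counted them on RefSeq transcripts, and deposited whole-number counts for each library. How multiply assigned reads were counted, whether strand was used and which RefSeq release served is not given in the sources used here, so overlapping and near-identical genes are uncertain. A second deposited table held the authors' own comparisons, of which only identifiers were used. Counts were fitted in edgeR 4.0.16 (R 4.3.3) by the quasi-likelihood test on all 24 libraries, with 8 groups and the replicate number as a block, on transcripts above 1 CPM in 2 or more libraries, with upper quartile factors and Benjamini-Hochberg adjustment at 0.05. The labels place the replicates of a condition on different days, without stating that equal numbers share a day. Alternatives were TMM scaling, DESeq2 1.42.0, limma 3.58.1 on log2(CPM + 1), other filters, no block, the 6 libraries alone and left-out libraries. The fit was tested on simulated data. Members and gene lists were chosen with earlier results of these data known. Genes were named by rule: with a mean of at least 1 CPM and the same direction in 3 of 3 replicates, the 15 largest rises and falls and the 10 smallest p, up to 4 called members of each list with the largest change and some well-known uncalled ones, the 6 smallest p of each other test, and genes the study measured by RT-qPCR. KLF2, MED12L and others singled out beyond it were chosen after their values were seen. Intervals and floors cover counting error only.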

Additional observations from a re-analysis of the deposited data

Results flagged for a closer look

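For 12 transcripts the change on GLP depletion differed between dex and ethanol in the interaction test (edgeR, adjusted p at most 0.05, 0.118% of those tested). In 10 the change was more negative in dex. The differences, dex minus ethanol on the log2 scale, were -0.85 for CYTH3, -0.81 for CDC42EP2, -0.43 for MCAM, -0.87 for BTNL9, -0.87 for C1orf186, -0.36 for BOD1L1, -0.76 for DISP3, -0.57 for METTL7A, -1.58 for RASSF4 and -0.61 for FAM53B. In the other two, the difference was 0.60 for ID3 and 0.60 for CD180, both of which rose more in dex. RASSF4, METTL7A and DISP3 had log2 fold changes of -0.85, -0.22 and -0.52 in dex and of 0.73, 0.35 and 0.23 in ethanol, of which METTL7A passed the test in ethanol and not in dex (adjusted p = 0.00919 and 0.0834, edgeR). CYTH3 passed in 13 of the 15 settings tried, and FAM53B in 4.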

How the results depend on the processing

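The 587 calls in dex stayed between 573 and 603 in number with TMM scaling, DESeq2, limma, no filter or a mean of at least 5 CPM. Of the 587, 538 were called in the same direction with TMM, 497 with DESeq2 and 572 with limma. Without a filter 442 were, and at 5 CPM 489. The calls became 1176 with the 6 libraries fitted alone, and 165 to 486 with libraries left out, fewest without replicate 3, where 163 of the 165 were shared. Higher and lower calls numbered 337 and 250, and 350 and 253 with limma. They numbered 288 and 289 with TMM, 270 and 303 with DESeq2, 258 and 334 without a filter and 281 and 299 at 5 CPM. Deviations of same-numbered dex libraries correlated at 0.144, 0.078 and 0.283. Without the replicate block, 269 calls were left in dex, all shared, 171 of 367 in ethanol, 1 of 12 in the interaction, 387 of 876 against shG9a and 207 of 409 against shHP1γ. Left-out replicates gave 98 to 276 calls in ethanol, 0 to 7 in the interaction, 219 to 842 against shG9a, 114 to 265 against shHP1γ and 174 to 254 for the dex response. The interaction gave 23 with DESeq2 and 32 without a filter, and the dex response of 280 transcripts gave 185 with DESeq2 and 145 at 5 CPM. The causes were not tested beyond the fewer samples or genes. Of 105 called transcripts named by rule 45 were called in every setting, 41 were lost without the block and 53 without replicate 3, and none reversed. Reversals occurred only in uncalled transcripts with libraries left out, namely LDLRAD4 (NM_001276251 from -0.17 to 0.06, NM_181482 from -0.35 to 0.10), ARHGAP6 (NM_001287242 from -0.26 to 0.11, NM_006125 from -0.14 to 0.23) and ZNF831 (from -0.31 to 0.01).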
